A study of Mus musculus with 6 samples.

Results

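The 10 genes described here lie at the junction of p53 signalling and cell-cycle arrest, and were followed in cultured mouse hepatocytes. They were chosen by name, with no measured value in the rule, but with earlier results of these data known. They are the p53 gene Trp53, its inhibitor gene Mdm2, the p53 target genes Trp53inp1, Btg2, Ccng1 and Gdf15, and the CDK inhibitor genes Cdkn1a, Cdkn1b, Cdkn2a and Cdkn2b. All 10 symbols matched a gene in the deposited tables, which hold 55487 gene identifiers. RNA sequencing was done on 3 libraries of WT hepatocytes and 3 of Alb/MDA-9 hepatocytes, all primary cells that were cultured without treatment. The mice had a B6CBAF1 background and ate regular chow, and WT and Alb/MDA-9 heterozygote animals were littermates of one breeding scheme, per the labels. WT mice carried no transgene. Alb/MDA-9 mice carried human MDA-9/SDCBP, known as syntenin, a PDZ-domain adaptor that binds syndecans, with a C-terminal HA tag, driven by an albumin enhancer and core promoter that are active in hepatocytes. Age is not given in the sources used here, and neither is whether the numbered libraries came from separate animals or cultures. The p-values therefore set a group difference only against the spread between these libraries, which may in part be technical.

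The p53 protein is a transcription factor that is held at low levels in unstressed cells by MDM2, a ubiquitin ligase whose own gene p53 activates. After DNA damage or other stress p53 accumulates and switches on genes that stop the cell cycle, repair DNA or start apoptosis. The CDK inhibitors are proteins that bind cyclin-dependent kinases: the Cip/Kip group, with p21 (Cdkn1a) and p27 (Cdkn1b), acts on cyclin-CDK complexes, and the INK4 group, with p16 (Cdkn2a) and p15 (Cdkn2b), binds CDK4 and CDK6. In liver, p21 is known as a brake on hepatocyte division, and Cdkn2a also encodes ARF, which blocks MDM2.

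Promoter sequence was looked at because p53 binds DNA at paired half-sites. Of the 10 genes, 9 had a RefSeq promoter entry (GRCm38.p6), Trp53inp1 being the one without, and these gave 12 windows of 250 bases before a transcription start. The p53 consensus half-site, which reads the same on both strands, was present 5 times in 4 windows, against 7.13% of the 32526 distinct windows of that length. Those 4 windows are printed 5′ to 3′ on the gene's strand, without bases inside the annotated gene, because they hold the half-sites, which are in capitals.
Trp53, chr11:69580109-69580358, plus strand: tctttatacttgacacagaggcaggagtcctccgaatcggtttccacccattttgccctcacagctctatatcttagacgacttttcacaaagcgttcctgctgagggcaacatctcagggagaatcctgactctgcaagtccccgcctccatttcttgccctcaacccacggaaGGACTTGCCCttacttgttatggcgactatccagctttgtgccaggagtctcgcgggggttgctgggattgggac
Mdm2, chr10:117710759-117711008, minus strand: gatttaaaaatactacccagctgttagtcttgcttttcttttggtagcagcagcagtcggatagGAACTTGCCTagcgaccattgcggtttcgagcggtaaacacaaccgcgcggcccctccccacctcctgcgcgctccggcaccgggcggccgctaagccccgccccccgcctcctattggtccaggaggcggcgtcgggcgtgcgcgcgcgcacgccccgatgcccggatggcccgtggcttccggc
Cdkn1a, chr17:29090729-29090975, plus strand: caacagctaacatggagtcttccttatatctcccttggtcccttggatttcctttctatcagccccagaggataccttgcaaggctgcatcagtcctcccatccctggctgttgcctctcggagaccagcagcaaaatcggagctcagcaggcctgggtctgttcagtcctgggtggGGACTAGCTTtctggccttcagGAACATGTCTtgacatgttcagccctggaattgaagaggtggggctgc
Ccng1, chr11:40755312-40755536, minus strand: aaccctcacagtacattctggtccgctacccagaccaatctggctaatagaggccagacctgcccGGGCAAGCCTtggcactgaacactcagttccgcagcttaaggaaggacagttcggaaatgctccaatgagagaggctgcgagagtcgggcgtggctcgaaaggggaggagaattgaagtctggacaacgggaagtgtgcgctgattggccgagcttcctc
The Cdkn1a window lies before the upstream of its RefSeq starts and holds 2 half-sites, at bases -73 to -64 and -51 to -42 counted from that start. In Trp53 the match is at -75 to -66, in Mdm2 at -186 to -177 and in Ccng1 at -185 to -176. A match is a description of the letters, not a measured binding site, and the windows of Cdkn1b, Cdkn2a, Cdkn2b, Btg2 and Gdf15 say only that the letters are not in them.

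Each library held 16403918 to 19046739 reads counted on the annotated strand of a gene. Over the 13296 genes with enough reads to be tested, the first principal component (55.5% of the variance) separated WT from Alb/MDA-9 libraries. The second (17.0%) split the Alb/MDA-9 group, with library 3 at 32.9 and libraries 1 and 2 at -16.2 and -14.3. The WT libraries lay between these, from -3.17 to 2.59. Hepatocyte markers such as Alb were abundant in all libraries, with the 10 markers summing to 78390 to 81751 CPM in WT libraries and 82728 to 97347 CPM in those with the transgene (CPM, read counts scaled to library size with TMM factors). Markers of other liver cells were present too. The transgene is human and the counts are of mouse genes, and whether any of its reads were counted was not tested. No value here checks the genotype labels.

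None of the 9 tested genes passed the test between genotypes, while several cyclin genes and the kinase gene Cdk1 fell. In edgeR's quasi-likelihood test with Benjamini-Hochberg adjustment over all tested genes, 0 of 9 passed an adjusted p of 0.05, and 0 of 9 had an unadjusted p under it. Among all 13296 tested genes 14.4% passed the adjusted threshold, 7.35% as higher and 7.09% as lower in Alb/MDA-9, and 27.9% had an unadjusted p under 0.05. DESeq2 and limma's voom with quality weights also called 0 of the 9. The median log2 change of the 9 was 0.06, against -0.0015 over all tested genes, and their values ran from -0.33 for Gdf15 to 0.38 for Cdkn2b. The tenth gene, Cdkn2a, had too few reads to be tested. Fewer cells of a type and less RNA per cell cannot be told apart in such bulk samples.

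**Figure D1:**
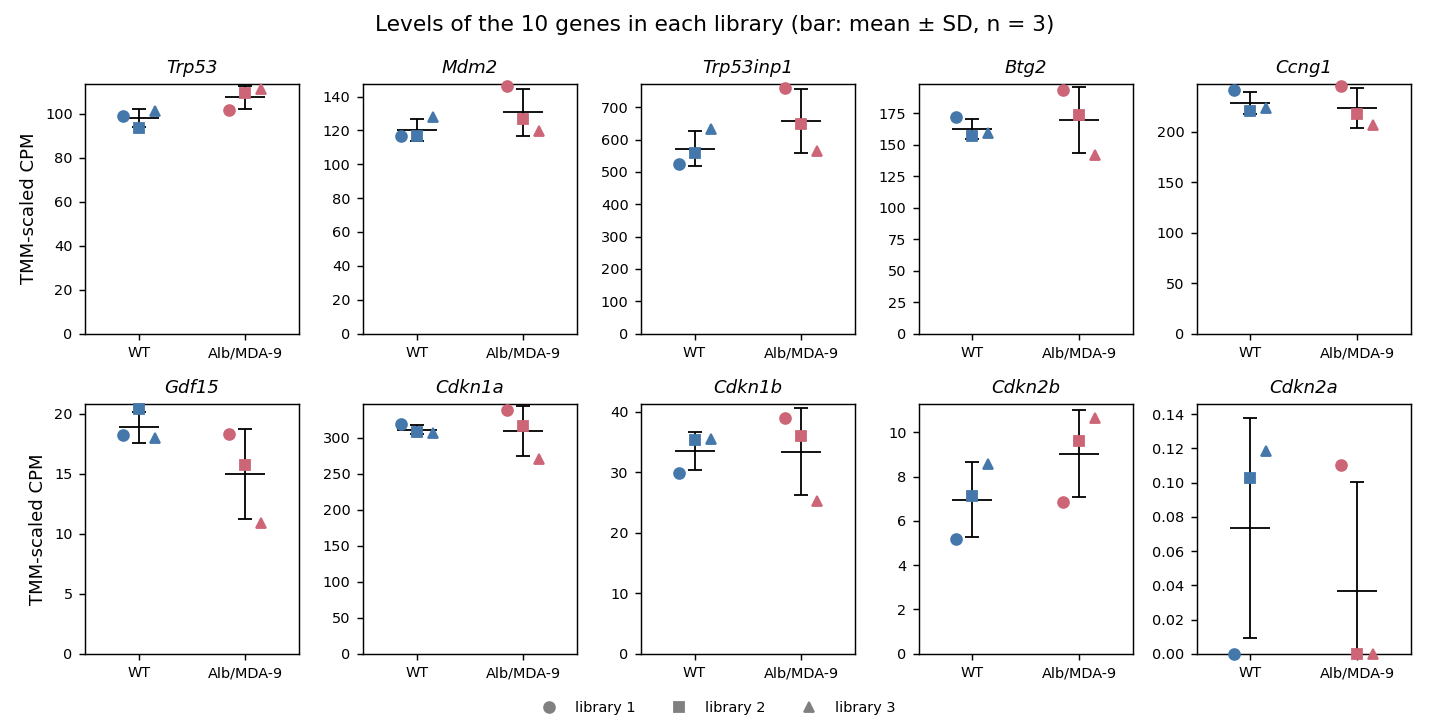
TMM-scaled CPM of each of the 10 genes in every library, on linear axes that start at 0, with WT in blue and Alb/MDA-9 in red. Bars give the mean and SD over 3 libraries. The groups overlap in every panel but that of Trp53, where the lowest Alb/MDA-9 library (101.6 CPM) lies just above the highest WT library (101.5 CPM).

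Trp53 (ENSMUSG00000059552, chromosome 11, 69580359 to 69591873 on GRCm38, plus strand), which encodes p53, had 99.2, 93.3 and 101.5 CPM in WT 1 to 3. It had 101.6, 109.6 and 111.4 CPM in Alb/MDA-9 1 to 3. The groups did not overlap, though WT 3 and Alb/MDA-9 1 nearly met. This was the case for 1 of the 9 genes, against 33.6% of all tested genes. The means were 98.0 ± 4.21 and 107.5 ± 5.21 CPM (SD, n = 3), and the log2 change was 0.13 (SE 0.07, edgeR adjusted p = 0.242). The 95% interval of the fold change was 0.986 to 1.22. A processed copy annotated as Trp53-ps, 97.7% identical to a Trp53 transcript over 353 bases, held 45 reads over the 6 libraries, against 11070 reads of Trp53. Most regulation of p53 acts on the protein, which was not measured.

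Mdm2 (ENSMUSG00000020184, chromosome 10, 117688875 to 117710758, minus strand), both an inhibitor of p53 and one of its targets, had 116, 117 and 128 CPM in WT 1 to 3. In Alb/MDA-9 1 to 3 it had 146, 127 and 119 CPM. Alb/MDA-9 1 was the highest of the 6 libraries, and the other 2 of its group lay within the WT range. The log2 change was 0.12 (SE 0.08, edgeR adjusted p = 0.391), with a 95% interval of the fold from 0.956 to 1.23.

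Among the p53 targets, Trp53inp1 (ENSMUSG00000028211, chromosome 4, 11156431 to 11174379), which encodes a p53-induced protein that takes part in stress responses and autophagy, was the most abundant by reads. It had 525, 559 and 631 CPM in WT 1 to 3 and 761, 649 and 565 CPM in Alb/MDA-9 1 to 3. Alb/MDA-9 1 and 2 lay above all WT libraries and Alb/MDA-9 3 lay among them. The means were 572 ± 54.1 and 658 ± 98.5 CPM (SD, n = 3), and the log2 change was 0.20 (SE 0.11, edgeR adjusted p = 0.234). Without Alb/MDA-9 3 it passed the test as higher, with a log2 change of 0.30 (edgeR adjusted p = 0.0230), the single call for any of the 9 genes among 14 alternative settings. Without Alb/MDA-9 1 the log2 change was 0.09 (edgeR adjusted p = 0.605).

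Btg2 (ENSMUSG00000020423, chromosome 1, 134075170 to 134079120), an antiproliferative gene of the BTG/TOB family, had 172, 157 and 159 CPM in WT 1 to 3 and 194, 174 and 142 CPM in Alb/MDA-9 1 to 3. The highest and the lowest of the 6 libraries were both Alb/MDA-9 libraries, so the WT values lay inside the spread of the other group. The log2 change was 0.06 (SE 0.10, edgeR adjusted p = 0.734), and its sign turned with library totals in place of TMM (-0.05).

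Ccng1 (ENSMUSG00000020326, chromosome 11, 40748552 to 40755311), which encodes cyclin G1, a p53 target that recruits a phosphatase to MDM2, had 241, 221 and 224 CPM in WT 1 to 3. In Alb/MDA-9 1 to 3 it had 245, 217 and 207 CPM. The groups overlapped, the log2 change was -0.03 (SE 0.08, edgeR adjusted p = 0.820), and the 95% interval of the fold was 0.867 to 1.10.

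Gdf15 (ENSMUSG00000038508, chromosome 8, 70629393 to 70632456), which encodes a stress-induced hormone of the TGF-beta family, had 18.2, 20.4 and 17.99 CPM in WT 1 to 3. It had 18.3, 15.7 and 10.9 CPM in Alb/MDA-9 1 to 3. Alb/MDA-9 1 lay among the WT libraries, and Alb/MDA-9 2 and 3 lay under them. The means were 18.9 ± 1.30 and 14.97 ± 3.75 CPM (SD, n = 3), and the log2 change was -0.33 (SE 0.16, edgeR adjusted p = 0.200, unadjusted p = 0.0602, the lowest of the 9). Its value was -0.15 without Alb/MDA-9 3 and -0.50 without Alb/MDA-9 1 (edgeR adjusted p = 0.434 and 0.0608), and no setting gave it a call.

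Of the CDK inhibitors, Cdkn1a (ENSMUSG00000023067, chromosome 17, 29090976 to 29100727), the p21 gene and the best known p53 target, was abundant in both genotypes. It had 319, 308 and 307 CPM in WT 1 to 3 and 339, 316 and 271 CPM in Alb/MDA-9 1 to 3. The WT libraries lay close together (coefficient of variation 2.08%), and the Alb/MDA-9 libraries lay on both sides of them (11.2%). The means were 311 ± 6.46 and 309 ± 34.7 CPM (SD, n = 3), and the log2 change was -0.01 (SE 0.08, edgeR adjusted p = 0.946). The 95% interval of the fold ran from 0.874 to 1.13. The annotated gene AC167363.2 overlaps Cdkn1a on the opposite strand and held 7 reads over the 6 libraries.

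Cdkn1b (ENSMUSG00000003031, chromosome 6, 134920401 to 134925513), the p27 gene, which in many cells is controlled through turnover of its protein, had 29.8, 35.3 and 35.5 CPM in WT 1 to 3. In Alb/MDA-9 1 to 3 it had 38.9, 36.0 and 25.3 CPM. The highest and the lowest library were again both Alb/MDA-9. The log2 change was -0.004 (SE 0.14, edgeR adjusted p = 0.990), with an interval of the fold from 0.810 to 1.23.

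Cdkn2b (ENSMUSG00000073802, chromosome 4, 89306299 to 89311039), the p15 gene, a known target of TGF-beta signalling, had 5.20, 7.13 and 8.58 CPM in WT 1 to 3. It had 6.85, 9.61 and 10.7 CPM in Alb/MDA-9 1 to 3. The groups overlapped and were both wide, with coefficients of variation of 24.3% and 21.7%. The log2 change of 0.38 (SE 0.21, edgeR adjusted p = 0.267) had the widest interval of the 9 genes, a fold from 0.946 to 1.79.

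Its neighbour Cdkn2a (ENSMUSG00000044303, chromosome 4, 89274471 to 89294653), which encodes both p16 and ARF, was nearly absent. It had 0, 2 and 2 reads in WT 1 to 3 and 2, 0 and 0 reads in Alb/MDA-9 1 to 3. The 4 reads of WT and 2 of Alb/MDA-9 gave a ratio of 0.542, with a 95% counting interval of 0.0490 to 3.78, and an exact two-sided permutation test over the libraries gave p = 0.7, where the smallest p that 3 against 3 allows is 0.1. A library with 0 reads could have held up to 0.151 to 0.181 CPM, the level of 3 reads; this limit and the interval cover counting error only. The 2 transcripts of the locus cannot be separated in counts per gene.

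**Figure D2:**
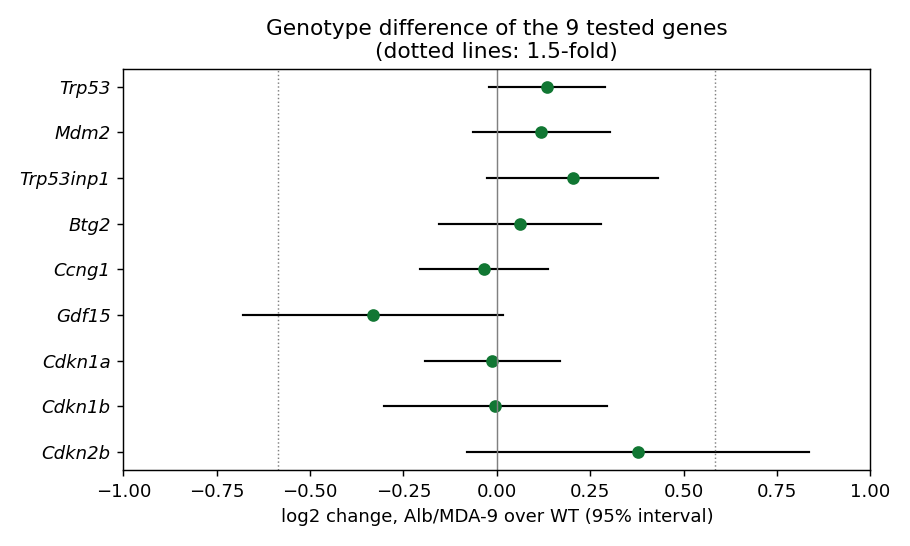
Log2 change of Alb/MDA-9 over WT for the 9 tested genes, with 95% intervals from the edgeR fit; dotted lines mark a 1.5-fold change in either direction. Every interval spans 0, and those of Gdf15 (fold 0.625 to 1.01) and Cdkn2b (0.946 to 1.79) cross a dotted line.

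The intervals show what size of change the 3 libraries per group could have missed. For 7 of the 9 genes the 95% interval of the fold lay within 1.5-fold in both directions, which was so for 60.6% of all tested genes. For 6 of them, Trp53, Mdm2, Btg2, Ccng1, Cdkn1a and Cdkn1b, it lay within 1.25-fold, against 27.9% of all tested genes. Gdf15 and Cdkn2b allowed larger changes, and Trp53inp1 allowed a fold from 0.982 to 1.35. Gdf15 and Cdkn2b had the fewest reads of the 9 genes, 1844 and 853 over the 6 libraries. Whether depth or spread between libraries widened their intervals was not tested.

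Alb/MDA-9 3, which the second principal component set apart from the other 2 libraries of its group, was at one end of that group for all 9 genes. It was the lowest of its group for 7 genes and the highest for Trp53 and Cdkn2b. Over all tested genes it was the lowest of its group for 36.1% and the highest for 36.7%. For 5 genes, Btg2, Ccng1, Gdf15, Cdkn1a and Cdkn1b, it was the lowest of the 6 libraries (20.2% of all tested genes). Against the mean of the other 2 Alb/MDA-9 libraries it stood at 0.641 times for Gdf15, 0.675 times for Cdkn1b, 0.771 times for Btg2 and 0.827 times for Cdkn1a. For Cdkn2b it stood at 1.29 times that mean. Alb/MDA-9 1 was the highest of its group for the same 7 genes for which library 3 was the lowest. Over all tested genes Alb/MDA-9 1 was the highest of its group for 33.2%. The share of all tested genes with library 1 highest and library 3 lowest at once was not counted. The coefficient of variation was larger in Alb/MDA-9 than in WT for 8 of the 9 genes, and for 63.1% of all tested genes. The macrophage gene Cd68 was low in Alb/MDA-9 3 too, at 137 CPM against 322 and 284 CPM in libraries 1 and 2, but the other 9 Kupffer cell markers summed to 86.3 CPM there, above the 63.98 and 76.8 CPM of those libraries. Alb stood at 55090 CPM in it, against 70170 and 63917 CPM, while the other 9 hepatocyte markers summed to 27638 CPM, between 27177 and 28002 CPM. The part of cell make-up in these differences was not tested.

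**Figure D3:**
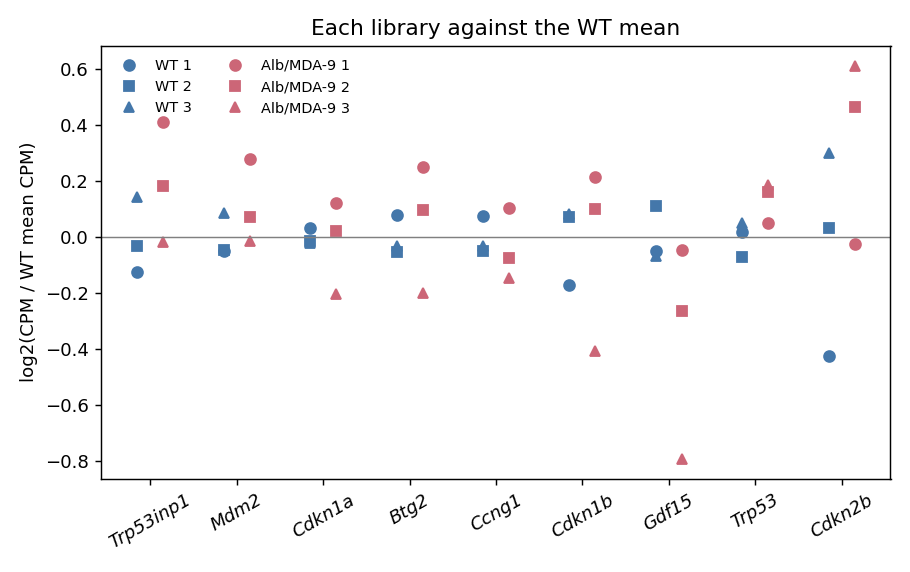
Level of each gene in every library as the log2 ratio to its WT mean, with WT in blue, Alb/MDA-9 in red and a marker shape for each library number. Alb/MDA-9 3 (red triangles) is the lowest of its group for 7 genes, most so for Gdf15 at 0.578 times the WT mean, and the highest for Trp53 (1.14 times) and Cdkn2b (1.53 times).

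Levels of different genes were compared per length of merged exons, as RPKM (TMM-scaled CPM per kilobase). That length joins all annotated exons of a gene, so it can exceed the length of a single transcript. It was 4045 bases for Trp53, 5083 for Mdm2, 4552 for Cdkn1b and 2743 for Btg2. Whether the order below holds with lengths of single transcripts was not tested. The order over the 6 libraries was Trp53inp1, Cdkn1a, Ccng1, Btg2, Trp53, Mdm2, Gdf15, Cdkn1b, Cdkn2b and Cdkn2a. Trp53inp1 had 95.01 ± 13.2 RPKM and Cdkn1a 87.2 ± 6.30 RPKM (SD over 6 libraries of both groups), and their ranges overlapped, with Trp53inp1 the higher in 4 of 6 libraries. They stood at percentiles 97.1 and 96.8 of all tested genes. Ccng1 (64.3 ± 4.18 RPKM) and Btg2 (60.6 ± 6.48 RPKM) overlapped each other and lay under Cdkn1a in all 6 libraries. Trp53 itself (25.4 ± 1.66 RPKM) and Mdm2 (24.7 ± 2.20 RPKM) overlapped, under all targets but Gdf15. Gdf15 (9.13 ± 1.78 RPKM), Cdkn1b (7.35 ± 1.09 RPKM) and Cdkn2b (5.76 ± 1.44 RPKM) had overlapping ranges from one to the next, although Gdf15 lay above Cdkn1b within each of the 6 libraries. Among the CDK inhibitors, p21 transcripts were thus the most abundant and Cdkn2a transcripts the least, at most 0.101 RPKM.

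**Figure D4:**
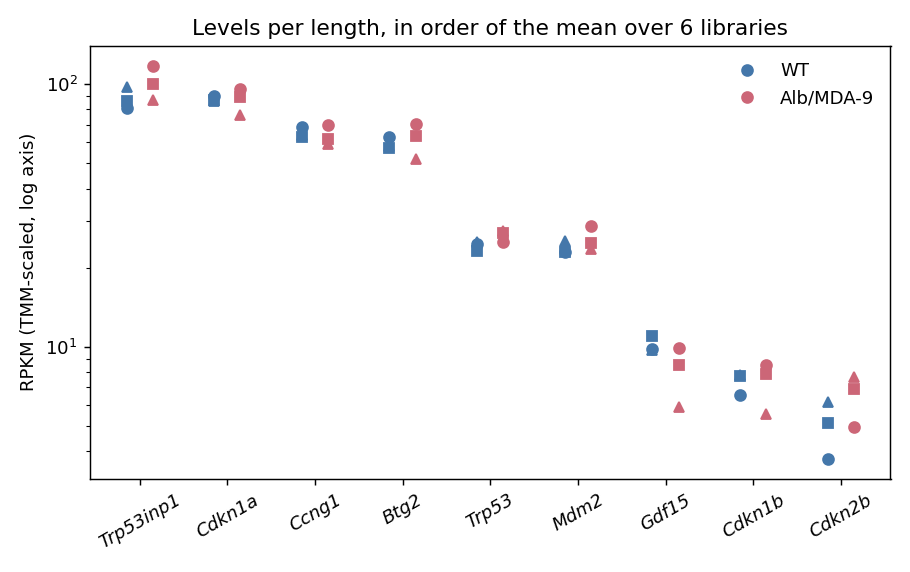
RPKM of the 9 tested genes on a log axis, ordered by the mean over 6 libraries, with WT in blue and Alb/MDA-9 in red and a marker shape for each library number. Per length of merged exons, levels form 3 tiers. The first 4 genes lie between 51.6 and 117.6 RPKM, Trp53 and Mdm2 between 22.9 and 28.7 RPKM, and the last 3 between 3.74 and 10.99 RPKM.

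By the rule fixed for naming them, the 5 tested genes whose log2 profiles over the 6 libraries lay nearest to that of Cdkn1a were Tex264, Msra, Arap2, Emsy and Hrg, at Euclidean distances of 0.02, 0.06, 0.07, 0.08 and 0.08. None of these passed the test between genotypes, but nearness to Cdkn1a, which did not differ between the groups, made that outcome all but fixed. The nearest, Tex264, went from 88.4 ± 2.04 CPM in WT libraries to 88.7 ± 9.77 CPM with the transgene (SD, n = 3). Of the described genes, Ccng1 (0.12) and Btg2 (0.14) lay nearest to Cdkn1a, ranking 62 and 107 among all tested genes, and Cdkn2b lay farthest (0.997). The profiles were centred but not scaled, so a distance also depends on how much a gene varied, and the ranks do not show shared control.

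Other genes of the pathway were taken from lists that hold none of the 10. Of 31 tested members of a wider list of p53 targets, 3 rose and 1 fell, shares near or under those of all tested genes (7.35% higher, 7.09% lower), and the median log2 change was -0.08, so the counts show nothing particular to p53 targets. Plk2, which encodes a polo-like kinase, rose from 118 ± 1.62 to 177 ± 16.2 CPM (SD, n = 3), by a log2 change of 0.58 with SE 0.08 and edgeR adjusted p = 0.000355. Pmaip1, which encodes the proapoptotic protein NOXA, rose from 1.21 ± 0.541 to 3.28 ± 0.241 CPM (edgeR adjusted p = 0.0139), a call that ended without Alb/MDA-9 2 (adjusted p = 0.0533). Eda2r, a receptor gene of the TNF receptor family, rose from 13.3 ± 1.76 to 17.8 ± 1.03 CPM, and Sesn1, which encodes a stress-induced inhibitor of mTORC1 signalling, fell from 15.8 ± 2.48 to 11.6 ± 0.736 CPM. The Eda2r call ended without WT 2, WT 3, Alb/MDA-9 1 or Alb/MDA-9 2, and also with library totals, upper-quartile factors, a stricter low-count filter or a term for the replicate number (the replicate block). The Sesn1 call ended without WT 1, WT 2, Alb/MDA-9 1 or Alb/MDA-9 2, and with voom or the replicate block. Bax, a proapoptotic target, had 76.1 ± 0.908 and 77.9 ± 2.57 CPM. Without Alb/MDA-9 3 the count of rises was 5 and of falls 2, and without Alb/MDA-9 2 they were 1 and 0.

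Of 20 tested genes that regulate p53, 2 rose and 0 fell, where 7.35% of all tested genes rose and 7.09% fell, and the median log2 change was 0.06. At the adjusted threshold these counts too are close to the background. However, 11 of the 20 had an unadjusted edgeR p under 0.05, against 27.9% of all tested genes. The groups did not overlap for 9 of them, 7 higher and 2 lower, against 33.6% of all tested genes. Crebbp, which encodes an acetyltransferase that acts as a p53 coactivator, rose from 40.5 ± 2.09 to 49.3 ± 1.43 CPM (log2 change 0.28, SE 0.08, edgeR adjusted p = 0.0255). Ppp1r13b, which encodes the p53-binding protein ASPP1, rose from 22.1 ± 1.46 to 27.4 ± 1.29 CPM (edgeR adjusted p = 0.0462). Both calls ended on leaving out any library other than Alb/MDA-9 3, with library totals and with the replicate block, and that of Ppp1r13b also with upper-quartile factors, DESeq2, no filter or a stricter one. In all, 6 genes of the list rose and 1 fell without Alb/MDA-9 3. The p53 relatives Trp63 and Trp73 had 0 reads in all libraries.

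Larger values were found among genes whose products the CDK inhibitors bind or control. Of 25 tested CDK inhibitor, cyclin, CDK, E2F and pocket protein genes, 8 fell and 0 rose, and the median log2 change was -0.24, where 7.09% of all tested genes fell. The cyclin D1 gene Ccnd1 had 15.3, 14.3 and 12.6 CPM in WT 1 to 3 and 2.49, 3.03 and 5.12 CPM in Alb/MDA-9 1 to 3 (log2 change -1.99, SE 0.22, edgeR adjusted p = 8.92e-05). Ccna2, Cdk1 and Ccne2, of cyclin A2, the mitotic kinase and cyclin E2, fell by 2.29, 1.70 and 1.12 on the log2 scale. In none of these 4 genes did the groups overlap, but they were named for the lowest adjusted p of the list. Of the 25 tested genes of the list, 11 had groups without overlap, against 33.6% of all tested genes. The other CDK inhibitor genes of the list did not pass: Cdkn2c had in turn 2.41 ± 0.962 and 1.18 ± 0.469 CPM (edgeR adjusted p = 0.112), Cdkn2d 2.44 ± 0.0703 and 2.36 ± 1.004 CPM, and Cdkn1c 0.455 ± 0.267 and 0.560 ± 0.476 CPM. The retinoblastoma gene Rb1, at 16.7 ± 1.47 and 16.1 ± 1.94 CPM, did not pass either. The count of falls was 13 without Alb/MDA-9 3 and 6 to 8 without any other single library.

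**Figure D5:**
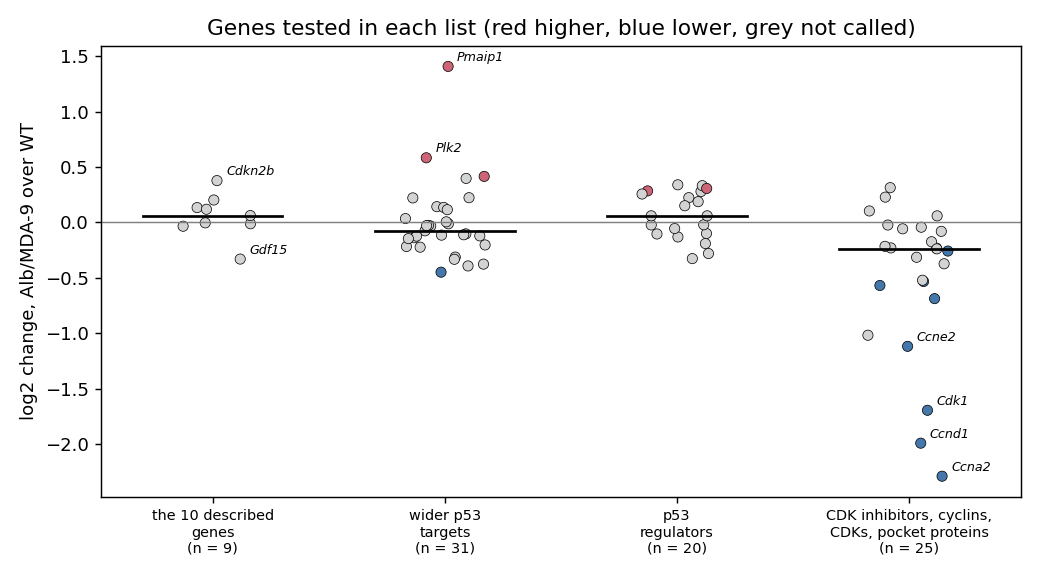
Log2 change of each tested gene in the 10-gene list and the 3 pathway lists, with genes that passed as higher in red, as lower in blue and others in grey; black lines are medians and horizontal scatter carries no value. The 9 described genes lie between -0.33 and 0.38, and cyclin and CDK genes reach -2.29 for Ccna2.

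Markers of other liver cells moved in the same comparison as the cyclins, where 7.35% of all tested genes rose and 7.09% fell. Of 10 Kupffer cell markers 7 fell and 0 rose, with Marco and Cd5l falling by 1.67 and 1.28 on the log2 scale, and the summed level ran from 394 to 410 CPM in WT libraries and from 224 to 386 CPM in Alb/MDA-9 libraries. Most of that sum was Cd68, which did not pass (271 ± 11.4 and 248 ± 97.5 CPM, SD, n = 3), and without it the sums were 126 to 131 and 63.98 to 86.3 CPM. Of 10 endothelial markers 5 fell, among them Lyve1 and Eng, and the sums were 260 to 283 CPM in WT libraries and 198 to 215 CPM in those with the transgene. Of 10 stellate cell and fibroblast markers 5 fell, among them Dcn and Bgn, with sums of 304 to 322 and 205 to 267 CPM, or 161 to 166 and 98.6 to 107 CPM without Reln, the most abundant of them, which did not pass. Of 6 tested cholangiocyte markers 3 rose, Spp1 and Sox9 among them, and 1 fell, with sums of 80.8 to 91.2 and 283 to 400.04 CPM. Spp1, which encodes osteopontin, made up most of that difference, at 0.769 to 1.36 CPM in WT and 171 to 279 CPM in Alb/MDA-9 libraries, and without it the sums were 79.5 to 90.4 and 111 to 121 CPM. The defining markers Cftr and Sctr had 0 reads, and Krt7 was the one that fell. Of 10 hepatocyte markers 2 rose and 1 fell: the transferrin gene Tf went from 6449 ± 177 to 9481 ± 514 CPM and Serpina1a from 833 ± 60.04 to 451 ± 40.6 CPM (SD, n = 3). No lymphocyte marker had enough reads to be tested, and their sum was at most 1.22 CPM. The part of these cells in the levels of the 10 genes and in the fall of the cyclin genes was not tested.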

How the data were processed

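The deposited tables hold raw read counts per gene, made by the authors with STAR 2.7.9a after Trim Galore 0.6.6 and FastQC 0.11.2 on mm10/GRCm38, per the submitters' processing notes; edgeR 3.18.1 is named there too. Which annotation release was used is not given in the sources used here. The column of reverse-strand reads was used, which held 96.9% to 97.2% of stranded reads. Unmapped (9.22% to 10.4% of reads), multimapping (18.7% to 20.2%), no-feature (4.90% to 6.01%) and ambiguous reads (0.791% to 0.835%) were left out.

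Symbols and coordinates came from GENCODE M21 (GRCm38), which held 55227 of 55487 identifiers. Genes were filtered with filterByExpr (minimum count 10), scaled by TMM (1.04 ± 0.00761 in WT, 0.965 ± 0.0237 in Alb/MDA-9; SD, n = 3) and compared in edgeR 4.0.16 under R 4.3.3 by glmQLFTest, with genotype as the only term. SE is the log2 change over the root of F. The script was tested on simulated data. Near-identical copies were sought with blastn (at least 95% identity over 200 bases).

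The members and gene lists were chosen with earlier results of these data known. All 10 members are named; from each pathway list up to 4 genes per direction and from each marker list 2, by lowest adjusted p. Alb, Bax, Cd68, Krt7, Rb1, Reln, Trp63, Trp73, Cdkn1c, Cdkn2c and Cdkn2d were named after their values were seen. Alternatives covered scaling, filter, strand column, DESeq2 1.42.0, limma 3.58.1, a replicate block and leaving out each library.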

Additional observations from a re-analysis of the deposited data

How the results depend on the processing

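Of 126 values of the 9 tested genes under alternatives, 115 kept direction without a call, 10 changed sign without a call and 1 gained one. The sign changes were Btg2 with library totals (-0.0455), Cdkn1a with voom and quality weights (0.0159), and otherwise came from leaving out a library, over which Cdkn1a ran from -0.0830 to 0.0728, Cdkn1b from -0.127 to 0.159, Ccng1 from -0.107 to 0.0168 and Btg2 from -0.0415 to 0.175. The 9 genes gave 0 falls in every setting, and leaving out a library gave 0 to 1 rises. Library totals shifted the median of all genes by -0.10 against TMM and gave 525 higher and 1622 lower of all genes, where TMM gave 977 and 943 and upper-quartile factors 722 and 1087. With a library left out these were 503 to 1178 higher and 515 to 1208 lower.

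Wider p53 targets that rose (3) numbered 2 with library totals, upper-quartile factors, the stricter filter (minimum count 50) or the replicate block, and those that fell (1) numbered 2 with library totals and 0 with voom and quality weights or the replicate block; over libraries left out, 1 to 5 rose and 0 to 2 fell. Regulators that rose (2) numbered 0 with library totals or the replicate block, 1 with upper-quartile factors or the stricter filter and 5 with voom. Regulators that fell (0) numbered 3 with library totals, 1 with upper-quartile factors, without a filter or with the stricter one, and 2 with voom; over libraries left out, 0 to 6 rose and 0 to 1 fell. Cyclin-CDK genes that fell (8) numbered 6 to 13 over libraries left out. The causes were not tested. The replicate numbers did not pair the libraries (correlations of deviations -0.041, -8.7e-05 and -0.062), and the replicate block called 775 genes higher and 826 lower. Depth limits Cdkn2a, with 6 reads in all.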
